A study of Mus musculus with 16 samples.

Results

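Expression of 10 CC chemokine genes was measured in mouse bone marrow-derived macrophages (BMDMs): Ccl2, Ccl7, Ccl12, Ccl8, Ccl3, Ccl4, Ccl5, Ccl6, Ccl9 and Ccl24. The genes were chosen by name, as ligands that attract monocytes and other inflammatory cells, out of 55487 genes in the count table. The RNA came from BMDMs of WT Balb/c mice aged 8 weeks, in 16 samples and 6 groups. The control medium (DMEM) had 2 samples, DMEM with ruxolitinib (DMEM + Rux) had 3, and conditioned medium of 4T1 mouse mammary tumor cells (CM) had 3. CM with 0.5 µM ruxolitinib, an inhibitor of the kinases JAK1 and JAK2, had 3 samples with a label of 4 h (CM + Rux) and 2 samples with a label of 2 h (CM + Rux 2 h). CM with 0.5 µM ruxolitinib and 0.8 µM IKK-16, an inhibitor of the IKK kinases that activate NF-κB, had 3 samples (CM + Rux + IKK-16). Every group with CM therefore also carried the soluble factors of 4T1 cells, IKK-16 was given only together with ruxolitinib, and no sample had IKK-16 without it. By the study's methods, 4 h was how long BMDMs meant for RNA were kept in CM and ruxolitinib. Before CM the cells were starved of serum for 2 h, and 0.5 µM ruxolitinib was already added during this pre-treatment. The ruxolitinib dose of DMEM + Rux, and what the 2 h label refers to, were not stated in the sources used here. Nothing in the labels says that samples of a group came from separate mice, so p-values measure the spread between these samples, which may be technical.

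CC chemokines are small secreted proteins that bind G protein-coupled receptors on leukocytes and direct their movement. Macrophages are a major source of them, and in tumors they are known for recruiting further monocytes, which enter tissue through the receptor CCR2. Several of these genes are textbook targets of NF-κB, and ligands of one genomic cluster often share receptors.

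The deposited counts summed to between 18449388 and 46215853 per sample, and levels are given as CPM, the count of a gene relative to the library total after scaling by relative log expression (RLE). All 11 macrophage markers checked, among them Adgre1 and Csf1r, were above 1 CPM in every sample, with a summed level of 40878 to 58096 CPM. Marker lists of other cells stayed low, and 4 of the 7 were higher in every CM sample than in both DMEM samples. The 8 epithelial markers summed to 0.0409 to 0.118 CPM in DMEM, where 5 of them (Epcam, Krt8, Krt19, Cldn4 and Krt14) had no count, and to 1.10 to 1.50 CPM in CM, where Krt14 had none. The 9 neutrophil markers summed to 0.327 to 0.355 CPM in DMEM and 1.72 to 3.24 CPM in CM, with Ly6g, Elane and Retnlg without a count in both. The 8 markers of mast cells, basophils and eosinophils summed to 0.532 to 0.819 CPM in DMEM and 2.89 to 3.27 CPM in CM, and Mcpt4, Cpa3, Tpsb2, Prss34 and Epx had no count in either group. The 7 dendritic cell markers summed to 1.76 to 2.31 CPM in DMEM, 4.62 to 7.73 CPM in CM, 7.28 to 11.1 CPM in CM + Rux, 13.9 to 17.3 CPM in the 2 h samples and 3.61 to 5.26 CPM in CM + Rux + IKK-16. This list holds the receptor gene Ccr7, at 2.28 to 5.47 CPM in CM and 5.04 to 8.82 CPM in CM + Rux. Ccr7 was at 4.50 to 5.05 CPM in the 2 h samples and 1.81 to 3.70 CPM in CM + Rux + IKK-16. The mast cell, basophil and eosinophil list was at 1.14 to 1.42 CPM in CM + Rux and 0.696 to 0.845 CPM with IKK-16. Over all samples the 8 markers of T and NK cells summed to 4.81 to 13.1 CPM, with Cd8a and Trac at 0, the 5 of B cells to 0.122 to 1.23 CPM and the 6 of fibroblasts to 5.83 to 20.9 CPM. The part of these cells in the chemokine results was not tested. In such bulk samples, fewer cells of a type and less RNA per cell cannot be told apart.

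Of the 10 genes, 9 lie on chromosome 11 in 2 clusters of the GRCm38 build. Ccl2, Ccl7, Ccl12 and Ccl8, the monocyte chemoattractant group, span 81.2 kb at chr11:82035571-82116799, all on the plus strand. Ccl5, Ccl9, Ccl6, Ccl3 and Ccl4, the macrophage inflammatory group with Ccl5, span 138.9 kb at chr11:83525778-83664683, with Ccl4 on the plus strand and the others on the minus strand. Ccl24 is at chr5:135569937-135573049 on the minus strand. In the table these genes are ENSMUSG00000035385 (Ccl2), ENSMUSG00000035373 (Ccl7), ENSMUSG00000035352 (Ccl12), ENSMUSG00000009185 (Ccl8), ENSMUSG00000035042 (Ccl5), ENSMUSG00000019122 (Ccl9), ENSMUSG00000018927 (Ccl6), ENSMUSG00000000982 (Ccl3), ENSMUSG00000018930 (Ccl4) and ENSMUSG00000004814 (Ccl24). RefSeq promoters of build GRCm38.p6 were given for 5 of the 10 genes, and 3 are printed below because they belong to genes at opposite ends of the measured levels: Ccl12, which had almost no counts, and Ccl9 and Ccl3, which had the highest levels per length. Each line holds the 250 bases before the RefSeq start, 5′ to 3′ on the strand of the gene, and capitals mark matches to the motif letters searched. The windows are chr11:82101595-82101844 on the plus strand for Ccl12, chr11:83578637-83578886 on the minus strand for Ccl9 and chr11:83649379-83649628 on the minus strand for Ccl3, whose RefSeq start lies 23 bases from the start of the gene in the count table.
Ccl12: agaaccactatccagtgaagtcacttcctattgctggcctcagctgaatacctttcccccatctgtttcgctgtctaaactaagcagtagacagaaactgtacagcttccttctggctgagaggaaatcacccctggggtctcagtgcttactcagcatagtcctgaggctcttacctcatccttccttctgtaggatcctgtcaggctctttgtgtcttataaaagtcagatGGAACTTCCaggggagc
Ccl9: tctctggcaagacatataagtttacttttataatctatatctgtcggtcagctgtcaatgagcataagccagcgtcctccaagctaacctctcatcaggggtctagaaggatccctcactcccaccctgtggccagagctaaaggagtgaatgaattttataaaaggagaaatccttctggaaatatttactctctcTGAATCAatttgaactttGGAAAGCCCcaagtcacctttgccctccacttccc
Ccl3: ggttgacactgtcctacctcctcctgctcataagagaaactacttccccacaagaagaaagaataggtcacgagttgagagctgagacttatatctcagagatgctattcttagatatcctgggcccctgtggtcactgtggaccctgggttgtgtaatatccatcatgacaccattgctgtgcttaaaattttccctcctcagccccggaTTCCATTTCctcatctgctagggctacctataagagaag

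The motif letters were searched on both strands in these 250 bases. The NF-κB letters GGNNNTTCC matched 17 to 9 bases before the start of Ccl12, on both strands, and 35 to 27 bases before that of Ccl9, on the minus strand of the printed run. They occur in 15.7% of the 32851 mouse promoter windows of this length. The AP-1 letters TGANTCA matched 53 to 47 bases before the start of Ccl9, on both strands, and occur in 6.75% of the windows. The interferon-response letters GAAANNGAA matched 39 to 31 bases before the start of Ccl3, on the minus strand of the printed run, and occur in 7.13%. None of these matches overlapped another, and the STAT letters TTCNNNGAA (7.02% of windows) and the C/EBP letters TTGCNNAA (9.56%) matched none of the 5 promoters. Ccl6 and Ccl8 held none of the 5 motifs in this window, which says only that these letters are not there. Promoters of Ccl2, Ccl7, Ccl4, Ccl5 and Ccl24 were not analysed here.

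A gene entered the tests if it was above 1 CPM, taken on unscaled library totals, in at least 2 samples, which 8 of the 10 did. Ccl12, a mouse monocyte chemoattractant that binds CCR2, had at most 15 counts in a sample. It had 6 and 13 counts in the DMEM samples, 2, 15 and 5 in CM, 0, 2 and 1 in DMEM + Rux, and 1, 2 and 1 in CM + Rux, with 3 or fewer in 11 of the 16 samples. As CPM, each DMEM sample was above each DMEM + Rux sample, and each CM sample was above each CM + Rux sample. Among all tested genes, which do not include Ccl12, 8.84% and 9.57% were separated in these ways. No share was taken among genes as low as Ccl12. Fitted with no filter on low counts, its log2 fold change was -3.34 in DMEM + Rux against DMEM (SE 0.98, adjusted p = 0.142) and -2.61 in CM + Rux against CM (SE 0.90, adjusted p = 0.121), and neither passed the threshold. Ccl8, a neighbouring chemoattractant gene, had no count in DMEM, at most 6 counts in any sample and 3 or fewer in 14 of the 16. No difference of Ccl8 or Ccl12 passed the threshold at this depth. Of the 8 tested genes, Ccl7 was above 1 CPM in none of the 5 samples without CM and Ccl2 in 3 of the 5, so Ccl7 passed the filter only through the CM groups. Each of the other 6 was above 1 CPM in all 16 samples.

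**Figure D1:**
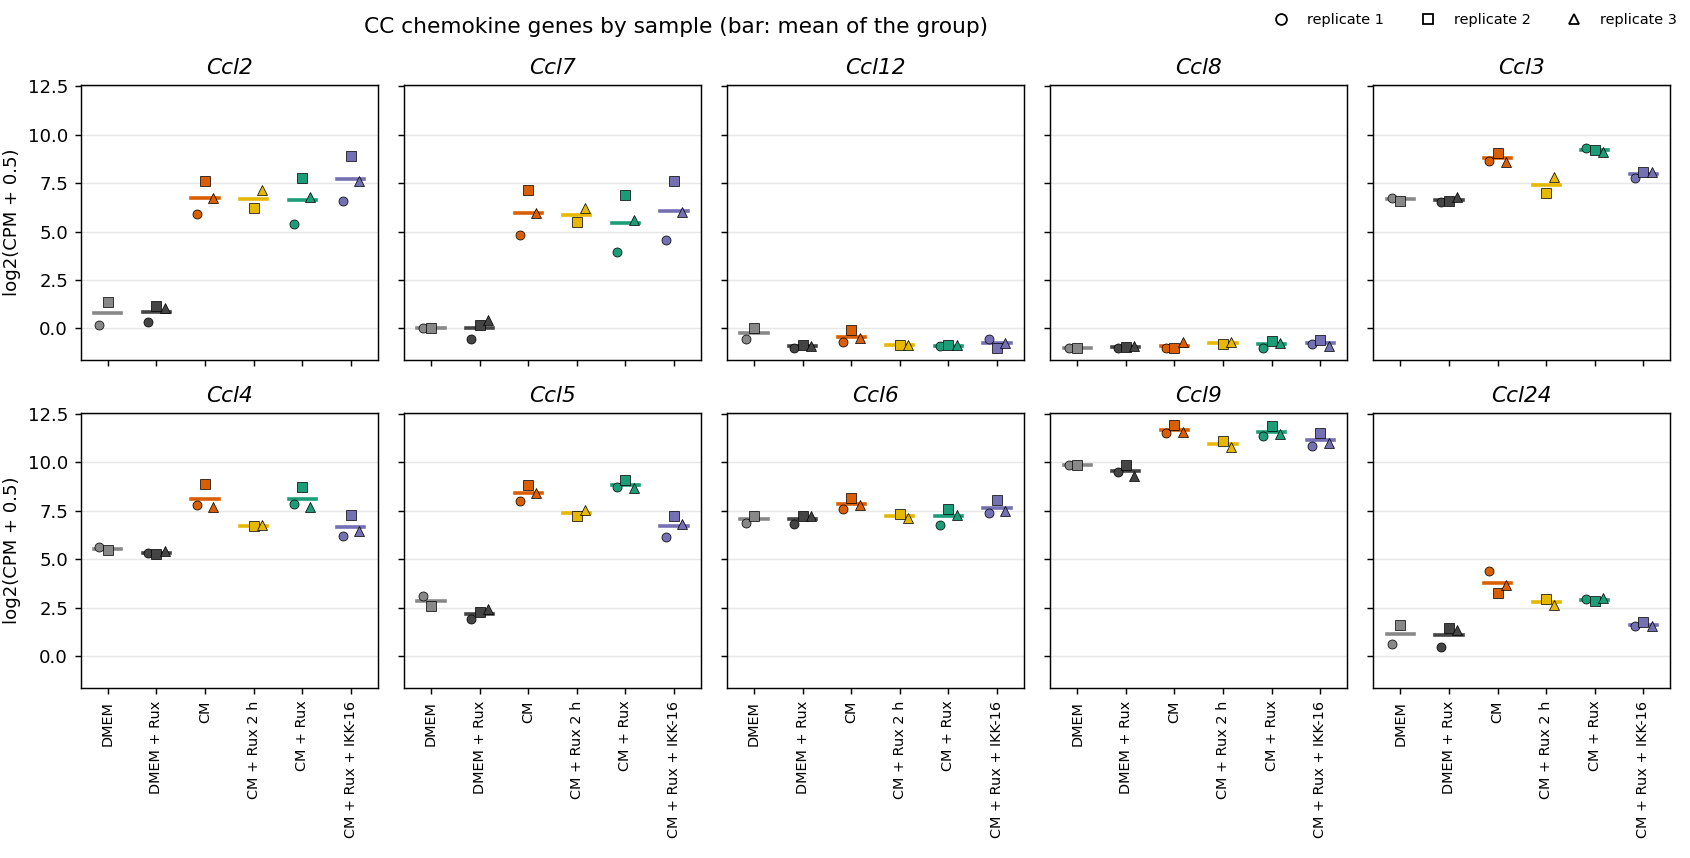
Level of the 10 chemokine genes in each of the 16 samples, as log2(CPM + 0.5), with a marker shape for each replicate number and a bar at the group mean. Ccl12 and Ccl8 lie near the floor in every group, Ccl2 and Ccl7 separate CM from DMEM most and spread most between replicates, and Ccl3, Ccl4 and Ccl5 lie lower in CM + Rux + IKK-16 than in CM + Rux.

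The first comparison, CM against DMEM, addressed how tumor-derived soluble factors change macrophages. All 8 tested genes were higher in CM, from 1.75-fold for Ccl6 to 143-fold for Ccl7. Ccl7 passed the filter only through the CM groups. Its rise is therefore no support for the count of 8, the median or the separation of samples in this comparison. A gene was called when its adjusted p (edgeR quasi-likelihood test, Benjamini-Hochberg over 12372 genes) was under 0.05 and its log2 fold change beyond 0.5, and 20.9% of all tested genes were called higher in this comparison. The median log2 fold change of the 8 genes was 2.85, beside a median of about zero, -0.0050, over all tested genes. RLE scaling shifted the median of all genes by 0.31 (log2) relative to scaling by total counts alone, and with the latter 1536 genes were called higher and 4606 lower in place of 2584 and 2980. Of the 8 chemokine genes, 7 stayed called higher on total counts alone, and Ccl6 did not.

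Ccl2 encodes the main ligand of CCR2 on monocytes. Its level was 0.650 and 2.05 CPM in DMEM and 60.2, 198 and 104 CPM in CM, so the groups were far apart, but the highest CM sample was 3.28 times the lowest. The fold change was 95.2 (log2 6.57, SE 1.06, adjusted p = 1.08e-04). Ccl7, which also binds CCR2, lies 8.3 kb from Ccl2. Its level was 0.532 CPM in both DMEM samples, from 18 and 13 counts, and 27.8, 139.6 and 61.7 CPM in CM (log2 fold change 7.16, SE 1.39, adjusted p = 4.98e-04). In both genes replicate 2 of CM was the highest and replicate 1 the lowest.

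Ccl5, a chemoattractant for T cells, monocytes and eosinophils, showed the third largest fold. It was at 7.98 and 5.48 CPM in DMEM and at 258, 449.9 and 348 CPM in CM (51.8-fold, log2 5.70, SE 0.38, adjusted p = 4.21e-08). Ccl3 and Ccl4 encode macrophage inflammatory proteins, and both were already well expressed in DMEM. Ccl3 was at 107 and 96.3 CPM in DMEM and at 402, 537 and 391 CPM in CM (4.37-fold, log2 2.13, SE 0.21, adjusted p = 1.32e-06). Ccl4 was at 48.5 and 44.0 CPM in DMEM and at 222, 475 and 206 CPM in CM (6.51-fold, log2 2.70, SE 0.42, adjusted p = 8.28e-05). Every CM sample of these 3 genes was above every DMEM sample.

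Ccl9 and Ccl6 encode CCR1 ligands known from mouse myeloid cells. Ccl9 rose from 919 and 933 CPM in DMEM to 2949.8, 3882 and 3082 CPM in CM (3.57-fold, log2 1.84, SE 0.23, adjusted p = 1.16e-05). Ccl6 was at 115 and 152 CPM in DMEM and at 192, 288 and 224 CPM in CM (log2 fold change 0.81, SE 0.26, adjusted p = 0.0132). The call for Ccl6 was lost without CM replicate 2 (log2 0.64, adjusted p = 0.0529) and without DMEM replicate 1 (log2 0.62, adjusted p = 0.122). Ccl24, an eotaxin that attracts eosinophils through CCR3, was at 1.03 and 2.58 CPM in DMEM and at 20.5, 9.21 and 12.5 CPM in CM (7.93-fold, log2 2.99, SE 0.42, adjusted p = 3.24e-05). Unlike Ccl2 and Ccl7, it was highest in replicate 1 of CM. In all 8 genes the samples of the 2 groups did not overlap, which held for 37.8% of all tested genes in this direction.

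**Figure D2:**
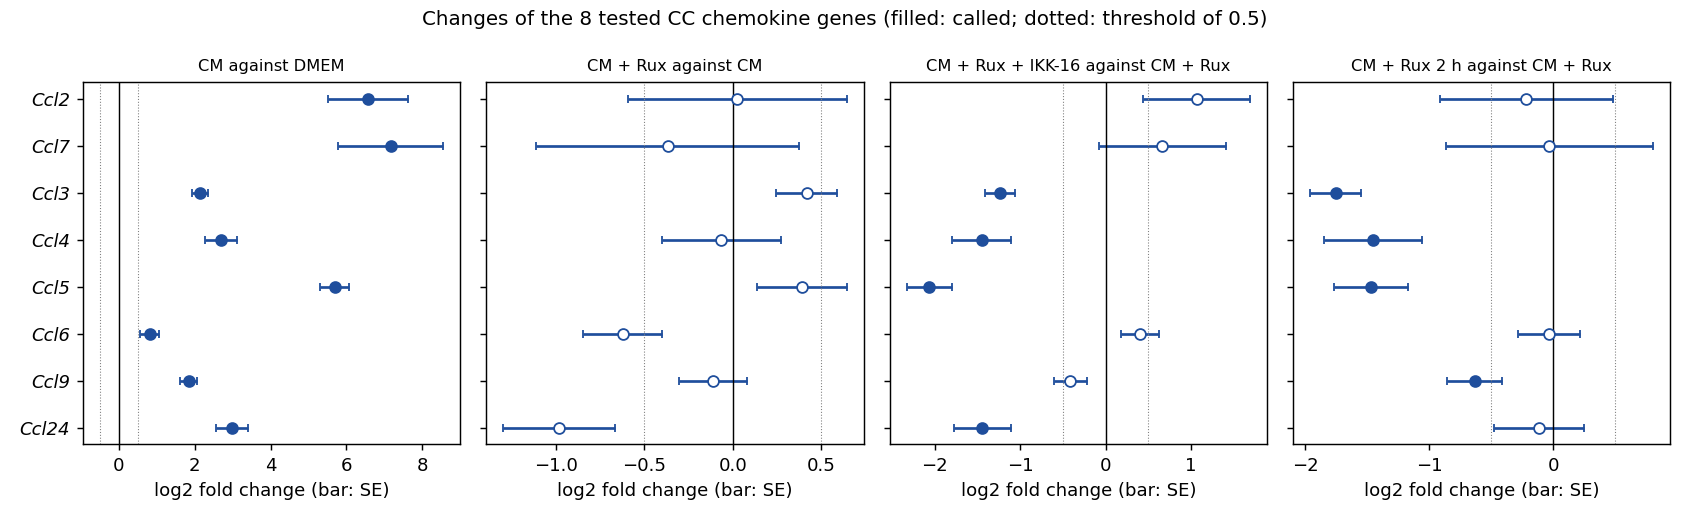
Log2 fold change of the 8 tested chemokine genes in 4 comparisons, with the SE as a bar, filled points for called genes and dotted lines at the threshold of 0.5. All 8 points are filled in CM against DMEM, none in CM + Rux against CM, and 4 in each of the other comparisons, all of them below zero.

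CM + Rux was then compared with CM to ask what JAK1/2 inhibition changes in tumor-conditioned BMDMs. None of the 8 chemokine genes was called in either direction by edgeR, beside 1.2% of all tested genes called higher and 2.13% called lower. At an unadjusted p under 0.05, 1 gene was higher (Ccl3) and 2 were lower (Ccl24 and Ccl6), and DESeq2 called 1 gene lower, Ccl24 (adjusted p = 0.0460). The median log2 fold change of the 8 was -0.09, beside 0.01 over all tested genes. The 10 genes listed as a check of JAK inhibition held 5 called lower and none higher in the same comparison.

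The high levels of Ccl2 and Ccl7 in CM were still present with ruxolitinib. Ccl2 was at 41.2, 220.1 and 108 CPM in CM + Rux (log2 fold change against CM 0.02, SE 0.62), and the 95% interval of the difference was -1.30 to 1.35. Ccl7 was at 14.8, 116 and 47.5 CPM, with an interval of -1.96 to 1.23 around a log2 fold change of -0.37. With the replicate block the log2 fold changes were -0.10 for Ccl2 (SE 0.30) and -0.48 for Ccl7 (SE 0.34), and neither was called. Replicate 2 was again the highest sample and replicate 1 the lowest, for both genes, and the highest was 5.34 times the lowest for Ccl2 and 7.86 times for Ccl7.

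Ccl3 was at 625, 599 and 556 CPM in CM + Rux, above all CM samples, but its change was not called (log2 0.42, SE 0.17, adjusted p = 0.241). The 2 groups also did not overlap for Ccl24, which was lower at 7.20, 6.64 and 7.38 CPM (log2 -0.98, SE 0.32, adjusted p = 0.109). Samples separated in this way for 9.66% of all tested genes in the higher direction and for 9.57% in the lower. Ccl5 was at 428, 549.6 and 408 CPM (log2 0.39, SE 0.25, adjusted p = 0.548). Within replicate numbers, CM + Rux was at 1.17 to 1.66 times CM for Ccl5, 1.11 to 1.55 for Ccl3, 0.352 to 0.721 for Ccl24, 0.530 to 0.831 for Ccl7 and 0.877 to 0.959 for Ccl9, on 1 side in 3 of 3 pairs each, and none of these 5 was called with the replicate block. The SEs and intervals given are from the test without the block unless it is named. Ccl4, at 229, 425 and 209.8 CPM, and Ccl9, at 2587, 3724 and 2851 CPM, overlapped with CM, with intervals of -0.79 to 0.66 and -0.53 to 0.30 on the log2 scale.

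Ccl6 was at 109, 194 and 155 CPM in CM + Rux and missed the threshold (log2 -0.62, SE 0.22, adjusted p = 0.158). Within each replicate number it was lower in CM + Rux than in CM, at 0.567 to 0.692 times the CM level in 3 of 3 pairs. When replicate number was added as a block, Ccl6 was called lower (log2 -0.64, SE 0.09, adjusted p = 4.11e-04), and the count of chemokine genes called lower was 1 in place of 0. The block called 440 of all 12372 tested genes lower in this comparison, in place of 263.

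IKK-16 was added to CM and ruxolitinib to ask what IKK activity contributes. Of the 8 genes, 4 were lower in CM + Rux + IKK-16 than in CM + Rux and called (Ccl3, Ccl4, Ccl5 and Ccl24), beside 3.66% of all tested genes. None was called higher, beside 4.07%, and none was higher at an unadjusted p under 0.05 or by DESeq2. The median log2 fold change of the 8 was -0.83, and that of all tested genes was -0.0019. On total counts alone 727 genes were called higher and 350 lower in place of 504 and 453. The 8 genes listed as a check of IKK inhibition held 5 called lower and none higher.

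Ccl5 showed the largest change of the 8. It was at 69.8, 152 and 111 CPM with IKK-16, against 428, 549.6 and 408 CPM without, which is 0.239 times the level (log2 -2.06, SE 0.26, adjusted p = 3.04e-04). Ccl3 fell from 625, 599 and 556 CPM to 217, 268 and 269 CPM (log2 -1.24, SE 0.18, adjusted p = 5.79e-04). In both genes all samples with IKK-16 were below all samples without. Ccl4 was at 73.7, 156 and 86.8 CPM with IKK-16 (log2 -1.45, SE 0.34, adjusted p = 0.0122), and its groups did not overlap either. Its call was lost without CM + Rux replicate 2 (adjusted p = 0.0560), without CM + Rux + IKK-16 replicate 1 (0.0625) and without CM + Rux + IKK-16 replicate 3 (0.0538), while the log2 fold change stayed at -1.06 or below. Ccl24 was at 2.42, 2.91 and 2.48 CPM, close to its DMEM level of 1.03 and 2.58 CPM (log2 against CM + Rux -1.44, SE 0.34, adjusted p = 0.0113). Samples were separated in the lower direction for 17.1% of all tested genes.

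The CCR2 ligands Ccl2 and Ccl7 were not lower. Ccl2 was at 94.3, 483 and 196 CPM with IKK-16, against 41.2, 220.1 and 108 CPM without (log2 1.06, SE 0.62, adjusted p = 0.285). The groups overlapped, yet within each replicate number Ccl2 was higher with IKK-16, by 1.81 to 2.29 times in 3 of 3 pairs. With the replicate block Ccl2 was called higher (log2 1.07, SE 0.30, adjusted p = 0.0175), which made the count of chemokine genes called higher 1 in place of 0. The block called 719 of all 12372 tested genes higher in this comparison, in place of 504. Ccl7 was at 22.9, 196 and 64.8 CPM with IKK-16, or 1.36 to 1.69 times the level without it in 3 of 3 pairs, and was called in neither test (log2 0.66, SE 0.74, adjusted p = 0.608). In CM + Rux + IKK-16 replicate 2 was 5.13 times replicate 1 for Ccl2 and 8.53 times for Ccl7.

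Ccl6 and Ccl9, the CCR1 ligands, were not called between these groups. Ccl6 was at 165, 262 and 179 CPM with IKK-16 (log2 0.40, SE 0.22, adjusted p = 0.253). It was higher with IKK-16 in 3 of 3 pairs of a replicate number, at 1.15 to 1.51 times the level without it. The replicate block gave Ccl6 a log2 fold change of 0.41 (SE 0.09, adjusted p = 0.00462), which missed a call only by the fold change threshold. Ccl9 was at 1869, 2928 and 2074 CPM (log2 -0.42, SE 0.19, adjusted p = 0.172), and it was called lower only without CM + Rux + IKK-16 replicate 2 (log2 -0.63, adjusted p = 0.0439). It was lower with IKK-16 in 3 of 3 pairs, at 0.722 to 0.786 times the level without it. The block gave Ccl9 a log2 fold change of -0.42 (SE 0.10, adjusted p = 0.00526), which also missed a call only by the fold change threshold.

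**Figure D3:**
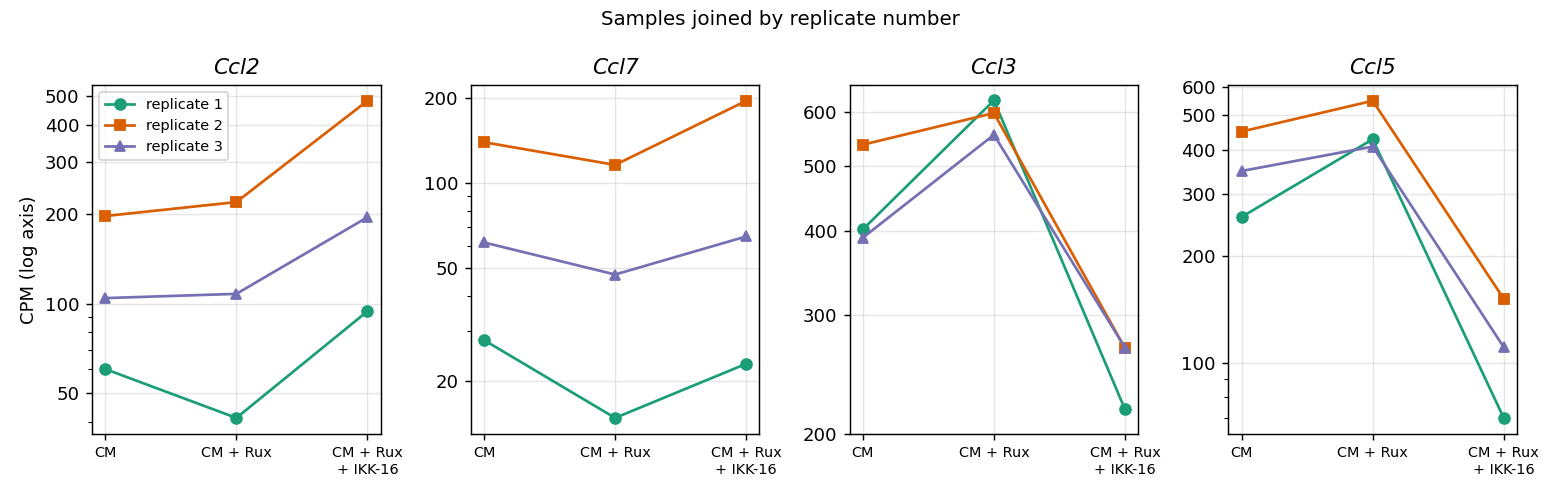
Level of Ccl2, Ccl7, Ccl3 and Ccl5 in CM, CM + Rux and CM + Rux + IKK-16, as CPM on a log axis, with samples of the same replicate number joined by lines. The lines of Ccl2 and Ccl7 run side by side far apart and rise with IKK-16 in all 3 numbers, and those of Ccl3 and Ccl5 fall with IKK-16 in all 3.

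Both inhibitors together were also set against CM alone. Ccl3 (log2 -0.82, adjusted p = 0.00431), Ccl4 (-1.51, adjusted p = 0.00655), Ccl5 (-1.67, adjusted p = 4.83e-04) and Ccl24 (-2.42, adjusted p = 2.26e-04) were called lower by edgeR, beside 6.13% of all tested genes. These groups share the CM + Rux + IKK-16 samples with the comparison above. None of the 8 was called higher, beside 6.6% of all tested genes, and none was at an unadjusted p under 0.05 or by DESeq2. Ccl2 was 1.57 to 2.45 times its CM level in the 3 pairs of a replicate number and was called higher only with the block (log2 0.97, SE 0.30, adjusted p = 0.0225), where the test without it gave 1.09 and an adjusted p of 0.231, and with no filter on low counts (adjusted p = 0.0388). Ccl9 missed the threshold (log2 -0.53, SE 0.19, adjusted p = 0.0627) and was called lower with the block (log2 -0.54, SE 0.10, adjusted p = 6.96e-04), by DESeq2 (0.0280), with no filter on low counts (0.00542), and without CM + Rux replicate 2 (0.0482) or CM + Rux + IKK-16 replicate 2 (0.0142). Its samples in the 2 groups did not overlap, as was true of 19.7% of all tested genes in the lower direction. Scaling shifted the median of all genes by -0.11 in this comparison, and on total counts alone 1255 genes were called higher and 587 lower in place of 817 and 758. With the block, 1021 of the 12372 tested genes were called higher and 904 lower. With no filter, 900 of 24476 genes were called higher and 893 lower.

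Without tumor factors, ruxolitinib gave no call among the 8 genes by edgeR, at an unadjusted p under 0.05 or by DESeq2, and 0% of all tested genes were called higher and 0.97% lower. Ccl5 was at 3.23, 4.31 and 4.86 CPM in DMEM + Rux, below both DMEM samples (log2 -0.70, SE 0.34, adjusted p = 1). Ccl4 was at 39.2, 37.8 and 42.0 CPM, also below both DMEM samples (log2 -0.22, SE 0.38, adjusted p = 1). Groups were separated in the lower direction for 8.84% of all tested genes. Ccl2, at 0.739, 1.70 and 1.55 CPM, and Ccl7, at 0.185, 0.625 and 0.874 CPM, had log2 intervals of -2.48 to 2.77 and -4.09 to 4.43. These wide intervals limit what can be said. The parts of depth and of spread between samples in them were not tested. Ccl3, Ccl6, Ccl9 and Ccl24 had log2 fold changes between -0.28 and 0.05.

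The ruxolitinib effect in CM was tested against that in DMEM as an interaction. No chemokine gene was called by edgeR or DESeq2, beside 0.234% of all tested genes in the higher direction and 0.178% in the lower, and 1 of the 8 had an unadjusted p under 0.05. That gene was Ccl5 (log2 difference of effects 1.09, SE 0.43, adjusted p = 0.398). Ccl6 differed by -0.66 (SE 0.34, adjusted p = 0.619) and was called with the replicate block (-0.67, SE 0.14, adjusted p = 0.0151), 1 gene in place of 0. The block called 197 of all 12372 tested genes in the lower direction, in place of 22. Ccl5 was called with no filter on low counts (1.09, adjusted p = 0.0240), as were 213 of 24476 genes in the higher direction.

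With ruxolitinib in both media, CM + Rux against DMEM + Rux, 7 of the 8 genes were called higher, beside 22.3% of all tested genes. Ccl7, among these 7, passed the filter only through the CM groups, so its call and its separation are no support here. Scaling shifted the median of all genes by 0.30 here, and on total counts alone 1699 genes were called higher and 4674 lower in place of 2761 and 3096. None of the 8 was called lower by edgeR, at an unadjusted p under 0.05 or by DESeq2, beside 25%. The largest fold was that of Ccl5, at 110.3 (log2 6.79, SE 0.34, adjusted p = 1.48e-09). Ccl2 (log2 6.45, SE 0.86) and Ccl7 (log2 6.62, SE 1.13) had changes of like size, and Ccl3, Ccl4, Ccl9 and Ccl24 lay between 1.96 and 2.86. Ccl6 was the exception, at 114, 150.4 and 148 CPM in DMEM + Rux and 109, 194 and 155 CPM in CM + Rux (log2 0.15, SE 0.22, adjusted p = 0.568), and its groups overlapped. The samples of the other 7 did not overlap, as held for 35.2% of all tested genes.

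The CM + Rux samples labelled 2 h were compared with those labelled 4 h. Ccl3 was at 128 and 224 CPM in the 2 h samples (log2 -1.75, SE 0.21, adjusted p = 2.73e-05), below all of the 4 h samples. Ccl5, at 148 and 187 CPM (log2 -1.47, SE 0.30, adjusted p = 0.00168), and Ccl4, at 103 and 108 CPM (log2 -1.45, SE 0.40, adjusted p = 0.0107), were lower as well. Ccl9 was at 2169.5 and 1768 CPM (log2 -0.63, SE 0.22, adjusted p = 0.0346). These 4 genes stand beside 10.7% of all tested genes called lower and 31.2% whose samples did not overlap in that direction, and none of the 8 was called higher by edgeR, at an unadjusted p under 0.05 or by DESeq2, beside 12.6%.

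The calls of Ccl4 and Ccl9 in this comparison were each lost when either 2 h sample was left out, with adjusted p of 0.0679 and 0.0637 for Ccl4 and of 0.0567 and 0.224 for Ccl9, and that of Ccl9 also without CM + Rux replicate 2 (0.115). The CCR2 ligands showed another picture, since Ccl2 was at 72.9 and 140.3 CPM (log2 -0.21, SE 0.70, adjusted p = 0.833) and Ccl7 at 44.4 and 73.1 CPM (log2 -0.03, SE 0.84, adjusted p = 0.981). Their intervals, -1.71 to 1.28 and -1.83 to 1.77, were wide, and in both genes replicate 2 was lower and replicate 3 higher in the 2 h samples than in the 4 h samples. Ccl6, at 159 and 139 CPM, and Ccl24, at 7.21 and 5.73 CPM, had log2 differences of -0.03 (SE 0.25) and -0.11 (SE 0.36).

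Levels were compared between genes as CPM per kilobase of exon. Ccl9 was first and Ccl3 second in all 6 groups, at 304 ± 3.29 and 132 ± 9.63 CPM per kb in DMEM (SD, n = 2) and 1085 ± 166 and 579 ± 106 in CM (SD, n = 3). Samples of these 2 genes did not overlap within any group. In DMEM, Ccl6 (74.6 ± 14.6) and Ccl4 (70.1 ± 4.78) followed and did not differ beyond their spread, and Ccl5 (7.01 ± 1.84), Ccl24 (1.39 ± 0.84), Ccl2 (1.18 ± 0.87) and Ccl7 (0.664 in both samples) were well below. Of these last 4, only Ccl5 was apart from its neighbour in the order.

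In CM the order after Ccl3 was Ccl4 (456 ± 229 CPM per kb), Ccl5 (367 ± 99.96), Ccl6 (131 ± 27.4), Ccl2 (106 ± 61.6), Ccl7 (95.3 ± 71.6) and Ccl24 (10.8 ± 4.48). Ccl3, Ccl4 and Ccl5 overlapped each with the next, as did Ccl6, Ccl2 and Ccl7. In CM + Rux, Ccl5 (481 ± 79.9) stood before Ccl4 (436 ± 181), though their samples overlapped. In CM + Rux + IKK-16, Ccl2 held the third place at 226.5 ± 177 CPM per kb (SD, n = 3), and Ccl5 had the sixth at 115 ± 42.6. The samples of all genes from Ccl3 to Ccl6 overlapped with those of the next gene there, so only the places of Ccl9 and Ccl24 were set apart. By reads, Ccl9 made up 63.8% to 76.6% of the summed CPM of the 10 genes in every sample, and this sum was 1200 to 1237 CPM in DMEM and 4132 to 5980 CPM in CM.

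**Figure D4:**
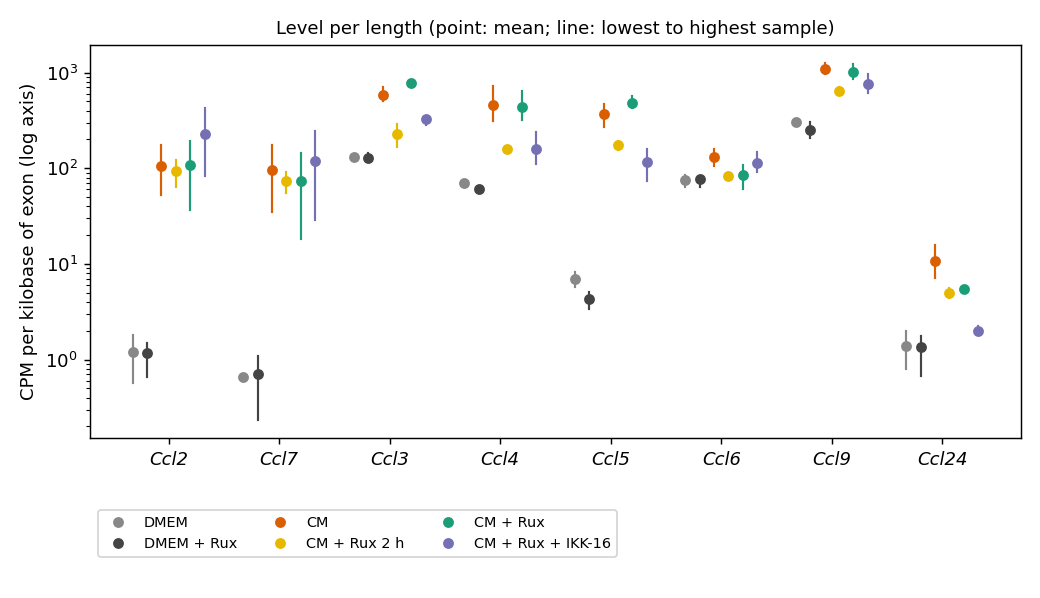
Mean level of the 8 tested chemokine genes in each of the 6 groups as CPM per kilobase of exon on a log axis, with a line from the lowest to the highest sample. Ccl9 and Ccl3 lead in every group, and Ccl2, Ccl7, Ccl5 and Ccl24 cover the widest range between groups.

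The genes whose pattern over the 6 group means was most like that of a member were found by the root mean square difference of centred log2(CPM + 0.5) values, over genes outside the 10. Ccl2 and Ccl7 were nearer to each other (0.32) than any gene outside the 10 was to either. In DMEM, Ccl2 was at 0.650 and 2.05 CPM and Ccl7 at 0.532 CPM in both samples. The added 0.5 sets much of these values, so this likeness is uncertain. Outside the set, the nearest to Ccl2 were Il1b (0.61), which encodes interleukin 1 beta, and Vegfa (0.64), which encodes an angiogenic growth factor. Those nearest to Ccl7 were Flrt3 (0.42) and Adora2b (0.45). For Ccl3 they were Gm16685 (0.14) and Ntng2 (0.20), and for Ccl5 they were Bcl2a1a (0.42) and Ier3 (0.46). Bcl2a1a belongs to a family of near-identical copies, so its counts are uncertain. Ccl9 was most like Prdx5 (0.10) and Gm41409 (0.11), Ccl6 most like Ctdp1 (0.08) and Iqgap3 (0.08), and Ccl24 most like Slc9a3r1 (0.15) and Acp5 (0.24). For Ccl4 they were F3 (0.16), which encodes tissue factor, and Heatr9 (0.13), which lies 3.6 kb from Ccl5. Heatr9 was so low without CM that the added 0.5 sets its values there, and its fitted log2 fold change in CM against DMEM was 4.70 where that of Ccl4 was 2.70. F3, Gm16685 and Gm41409 were low without CM too, at mean log2(CPM + 0.5) values of -0.56, -0.61 and -0.28 in DMEM. The added 0.5 therefore also sets much of their values there, and their likeness is uncertain.

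Heatr9 was the tested gene nearest to a member among 48 others listed within 200 kb of a member, of which 11 were tested and none shares exon bases with a chemokine gene. It was called higher in CM than in DMEM (log2 4.70, SE 0.58, adjusted p = 2.14e-05) and lower with IKK-16 than in CM + Rux (log2 -1.40, SE 0.34, adjusted p = 0.0175), a call lost without CM + Rux replicate 1 or 2 or CM + Rux + IKK-16 replicate 1 or 3 (adjusted p = 0.0553 to 0.0768) and with only the 2 groups fitted (0.0610). In CM against DMEM, 5 of the 11 tested neighbours were called higher and 1 lower, beside 20.9% and 24.1% of all tested genes. Heatr9, among these 5, was under 1 CPM in every sample without CM. It passed the filter only through the CM groups, so its call is no support for this count. Hip1, 24.8 kb from Ccl24, was the neighbour called lower (log2 -0.95, SE 0.12, adjusted p = 1.06e-05), where Ccl24 was higher. In CM + Rux + IKK-16 against CM + Rux, 2 neighbours were called higher and 1 lower, beside 4.07% and 3.66% of all tested genes.

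The receptors for these ligands were counted from a list of 13 CC chemokine receptors and decoys, of which 6 passed the filter. In CM against DMEM, 4 of the 6 were called higher and 1 lower, beside 20.9% and 24.1% of all tested genes. Ccr7, among the 4, was under 1 CPM in all 5 samples without CM and passed the filter only through the CM groups. Ccr1, the receptor of Ccl9, Ccl6, Ccl3 and Ccl5, was at 1.83 and 4.38 CPM in DMEM and 98.8, 178 and 153 CPM in CM (log2 5.58, SE 0.63, adjusted p = 4.21e-06). Ccr3, the receptor of Ccl24, was also called higher (log2 1.64, SE 0.50, adjusted p = 0.0103). Ccrl2, an atypical receptor that binds ligands without the usual signalling, was at 41.3 and 28.9 CPM in DMEM and 228, 328 and 255 CPM in CM (log2 2.94, SE 0.27, adjusted p = 6.65e-07).

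Ccr2, the receptor of Ccl2 and Ccl7, differed in direction from its ligands. It was at 36.1 and 34.4 CPM in DMEM and at 29.3, 20.3 and 16.6 CPM in CM (log2 -0.68, SE 0.25, adjusted p = 0.0275). The calls of 2 receptors rested on few samples. That of Ccr2 was lost without CM replicate 2 or 3 or either DMEM sample (adjusted p = 0.0751 to 0.103), and that of Ccr3 without DMEM replicate 1 (0.0963).

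In CM + Rux against CM, 2 of the 6 receptor genes were called higher (Ccrl2 and Ccr9) and 1 lower (Ccr2), beside 1.2% and 2.13% of all tested genes. Ccrl2 was at 432, 637 and 435 CPM in CM + Rux (log2 0.89, SE 0.21, adjusted p = 0.0274) and at 796 and 809 CPM in the 2 h samples. Ccr2 was at 12.1, 13.3 and 8.70 CPM in CM + Rux (log2 -0.93, SE 0.23, adjusted p = 0.0343). Ccr1 was not called, at 36.4, 105 and 74.1 CPM in CM + Rux and 98.8, 178 and 153 CPM in CM. The groups overlapped, but Ccr1 was lower in CM + Rux within each replicate number, and it was at 38.1 and 44.7 CPM in the 2 h samples. Within each number Ccr3 was also lower and Ccr7 higher in CM + Rux, and neither was called. Ccr9 passed the filter only through CM + Rux, the group in which it was higher, so its call is no support for the count, and it was at 1.16 ± 0.10 CPM in CM + Rux and 0.410 ± 0.220 CPM in CM (SD, n = 3). Without CM replicate 1, CM replicate 3 or CM + Rux replicate 2 the Ccrl2 call was lost (adjusted p = 0.0860 to 0.114), and the Ccr2 call was lost without CM replicate 1 or 2 or CM + Rux replicate 1 or 3 (0.0729 to 0.147) and with only the 2 groups fitted (0.0902). Adding IKK-16 gave 1 call among the 6, Ccr7 lower, beside 3.66% of all tested genes called lower. Against CM + Rux, Ccr1 and Ccr2 had log2 fold changes of 0.18 and -0.03.

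**Figure D5:**
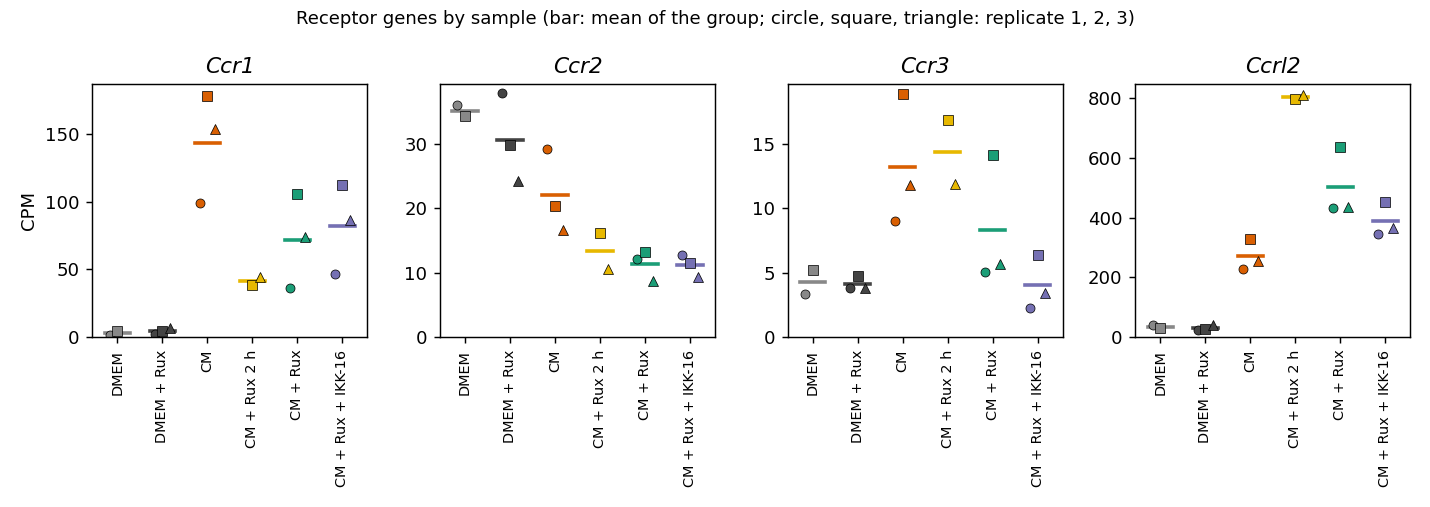
Level of 4 receptor genes in each of the 16 samples as CPM on linear axes from 0, with a bar at the group mean. Ccr1 and Ccrl2 lie higher in CM than in DMEM, Ccr2 lies lower in CM + Rux than in CM, and Ccrl2 is highest in the 2 h samples.

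Of 11 other CC chemokine ligand genes listed, 3 were tested. Ccl17 and Ccl22, ligands of CCR4, were called higher in CM than in DMEM, beside 20.9% of all tested genes. Ccl22 was at 0.959 ± 0.315 CPM in DMEM (SD, n = 2) and 113 ± 42.8 CPM in CM (SD, n = 3), and Ccl17 had no count in DMEM and 25.0 ± 6.77 CPM in CM, so it entered the test only through the CM groups. With IKK-16, Ccl22 was called lower than in CM + Rux (log2 -1.24, SE 0.28, adjusted p = 0.00900), on the side of Ccl3, Ccl4 and Ccl5. The 31 genes listed for signalling downstream of chemokine receptors were all tested. In CM against DMEM, 9 were called higher and 7 lower, near the 20.9% and 24.1% of all tested genes, with Pik3r5, a regulatory subunit of PI3K gamma, as the largest rise (log2 1.40) and Rgs2, a regulator of G protein signalling, as the largest fall (log2 -3.49). In CM + Rux against CM 1 of the 31 was called, Arrb1, which was higher (log2 0.55), beside 1.2% of all tested genes. With IKK-16 1 was called higher, Plcb2 (log2 0.63), and 1 lower, Pik3r6 (log2 -0.95), beside 4.07% and 3.66%. Such small counts do not set the list apart from all tested genes.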

How the data were processed

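RNA of 16 BMDM samples was sequenced as paired ends from stranded libraries. Per the submitters' processing notes and the file header, the authors trimmed reads with Trimmomatic 0.33, aligned them to GRCm38 with HISAT2 2.1.0 and counted fragments per gene of Ensembl 100 with featureCounts 1.6.2 (both ends mapped, reverse strand, mapping quality at least 10). The authors deposited these as raw whole-number counts, 1 column per sample and 55487 genes. Symbols came from GENCODE M21 and matched 55141 identifiers. Identifiers without a symbol made up no more than 0.0459% of any library.

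Samples were grouped by label. Counts were scaled by RLE, the 12372 genes with over 1 CPM in 2 samples or more were tested, and 1 model of all 16 samples and 6 groups was fitted with the quasi-likelihood F test of edgeR 4.0.16 (limma 3.58.1, R 4.3.3), with Benjamini-Hochberg adjustment. A call needed an adjusted p under 0.05 and a log2 fold change beyond 0.5. This filter, scaling and threshold follow the study's methods. The SE is the log2 fold change divided by the root of F, and 95% intervals use the t distribution with the degrees of freedom of the test. The scripts were tested on simulated counts. Alternatives were TMM, total counts alone, no filter, filterByExpr, the replicate block, DESeq2 1.42.0, only the groups compared, no fold change threshold and leaving out each sample. CPM per kilobase used the exon length in the deposited table, and tables and figures were made with pandas 2.3.3, matplotlib 3.10.9 and numpy 2.4.6 in Python 3.11.15. Replicates differed by more than sampling noise (chi-square divided by its degrees of freedom, 15.3 or more).

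Replicate numbers paired the samples: in the groups compared with 3 pairs, deviations from the group means of same-numbered samples correlated at 0.163 to 0.717 in every pair, and in all groups compared those of different numbers at most at 0.059. Between groups not compared, the lowest same-numbered value was -0.011 (CM + Rux 2 h with DMEM) and the highest different-numbered one 0.137. Deviations from a group mean cancel within the group, so the low different-numbered values follow in part from the same-numbered ones. They are no separate support for the pairing. The source of the pairing is this check of the data, since the labels give numbers only.

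The members and gene lists were chosen with earlier results of these data known. Named were all members, the tested receptors and other ligands, the signalling genes changed most each way among those called, the nearest tested neighbours and the 2 genes most like each member. Hip1 was chosen after its values were seen. 1 listed gene is not reported here. Promoters are from RefSeq.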

Additional observations from a re-analysis of the deposited data

Results flagged for a closer look

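The effect of ruxolitinib on Ccl6 differed between media when the replicate number was a block. The effect in CM minus that in DMEM was -0.67 on the log2 scale (SE 0.14, edgeR adjusted p = 0.0151), and without the block the difference was -0.66 (SE 0.34, adjusted p = 0.619). Ccl6 was lower with ruxolitinib in 3 of 3 same-numbered pairs in CM, and in DMEM the 2 pairs gave ratios of 0.986 and 0.991.

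Hip1, a neighbour of Ccl24, had a ruxolitinib effect that differed by -0.93 (log2) between CM and DMEM (SE 0.16, adjusted p = 0.0263), and by -0.96 with the replicate block (SE 0.11, adjusted p = 5.52e-04). The call without the block was lost in 7 of the leave-one-out fits, with adjusted p up to 0.129, and with only the groups compared (0.0601).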

How the results depend on the processing

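Counts of chemokine genes called moved by over 1.5 times from 0 in some settings. With no filter on low counts, 2 were lower in CM + Rux than in CM (Ccl6 and Ccl24), 1 was higher in the interaction (Ccl5) and 1 was higher in CM + Rux + IKK-16 than in CM (Ccl2). DESeq2 called 1 lower in CM + Rux than in CM (Ccl24). In the 2 h samples against CM + Rux, leave-one-out gave 2 to 4 called lower. In TMM, total counts alone, filterByExpr, only the groups compared and no fold change threshold, the 16 counts of members called stayed within 1.5 times. No cause was tested.

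With the replicate block, 1 was called lower in CM + Rux against CM (Ccl6), 1 lower in the interaction (Ccl6), 1 higher in CM + Rux + IKK-16 against CM + Rux (Ccl2), and 1 higher against CM (Ccl2), where Ccl9 was also called lower. The block changed no other call of a chemokine gene. Over all genes it called 305 higher and 440 lower in CM + Rux against CM in place of 149 and 263, and 247 and 197 in the interaction in place of 29 and 22. Without the filter the interaction had 213 and 136, and CM + Rux against CM 269 and 416. DESeq2 gave 147 and 87 in the interaction. Total counts alone gave 49 and 41 there. Leaving out 1 sample gave 9 to 84 genes higher and 5 to 34 lower there, and as few as 82 higher and 161 lower in CM + Rux against CM. With no fold change threshold, 3883 genes were higher in CM against DMEM, 225 in CM + Rux against CM and 831 in CM + Rux + IKK-16 against CM + Rux, where 947 were lower. Likewise 1364 were higher and 1493 lower in CM + Rux + IKK-16 against CM, and 2471 lower in the 2 h samples against CM + Rux.

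Signs turned only for changes that were not called. With the block, Ccl2 was at -0.10 in CM + Rux against CM, -0.11 in DMEM + Rux against DMEM and 0.013 in the interaction, and Ccl7 at -0.21 in DMEM + Rux against DMEM. With DESeq2, Ccl2 was at -0.0044 in DMEM + Rux against DMEM and 0.032 in the interaction, and Ccl24 at -0.0038 in the former. On total counts alone, Ccl6 was at -0.16 in CM + Rux against DMEM + Rux.

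Leaving out 1 sample at a time moved log2 fold changes across 0 as follows. In CM + Rux against CM, the ranges were -0.71 to 0.58 for Ccl2, -1.33 to 0.41 for Ccl7, -0.46 to 0.43 for Ccl4 and -0.28 to 0.018 for Ccl9. Ccl7 ranged from -0.45 to 1.62 in CM + Rux + IKK-16 against CM + Rux and from -0.81 to 1.07 against CM. In DMEM + Rux against DMEM, Ccl2 ranged from -0.54 to 1.11, Ccl7 from -0.17 to 0.46, Ccl3 from -0.12 to 0.034, Ccl6 from -0.15 to 0.26 and Ccl24 from -0.51 to 0.81. In the interaction, they were -1.08 to 0.57 for Ccl2, -1.50 to 0.23 for Ccl7 and -0.23 to 0.65 for Ccl4. Ccl6 ranged from -0.062 to 0.35 in CM + Rux against DMEM + Rux. In the 2 h samples against CM + Rux, Ccl2 ranged from -0.76 to 0.52, Ccl7 from -0.49 to 0.93, Ccl6 from -0.23 to 0.18 and Ccl24 from -0.31 to 0.029. Where a group is left with 1 sample, it is assumed to vary like the other groups. Counts of Ccl12 and Ccl8 were low in all groups, with at most 15 and 6 in a sample. Without CM, those of Ccl2 and Ccl7 were low too, with at most 76 and 28 counts in a sample and wide intervals. The parts of depth and of low expression in these counts were not tested.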
